A study of Mus musculus with 8 samples.

Results

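The STAT transcription factors and their SOCS family inhibitors were described by 9 genes, Stat2, Stat3, Stat4, Stat5a, Stat5b, Stat6, Socs1, Socs3 and Cish, in RNA-seq libraries of mouse dendritic cells. They were chosen by name from the 23420 genes of the deposited counts table, and all 9 were among the 12442 genes with enough reads to be tested. Another 6 Stat and Socs genes of the table were counted with them, none was called by edgeR's test over all 8 libraries in any of the 5 comparisons (DESeq2 called 1 between KO LPS and WT LPS and 2 in each LPS response), and they are not described here. The 4 groups, of 2 libraries each, were cells of Gata1 knock-out mice with LPS (KO LPS), cells of wild-type mice with LPS (WT LPS), KO cells at steady state (KO ST) and WT cells at steady state (WT ST). LPS, a lipopolysaccharide of the bacterial cell wall, is sensed by toll-like receptor 4, and Gata1 encodes a transcription factor of blood cell lineages. The sources used here do not give the strain, the age of the mice, how the cells were grown, the Gata1 allele, any Cre driver, or the dose and time of LPS. The series text calls the 2 libraries of a group biological replicates without saying whether they came from separate mice or cultures, so the spread behind the p-values may be partly technical.

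Cytokines bind receptors whose tails carry Janus kinases. The kinases phosphorylate the receptor and then STAT proteins, which pair, enter the nucleus and bind DNA. Stat2 acts with Irf9 downstream of type I interferon, Stat3 downstream of interleukin 6 and interleukin 10, and Stat4 downstream of interleukin 12. Stat5a and Stat5b act downstream of GM-CSF, the growth factor long used to raise dendritic cells in culture, and Stat6 acts downstream of interleukin 4. Socs1, Socs3 and Cish are made in answer to the same cytokines and shut their receptors down, so their RNA is commonly read as a trace of STAT activity. RNA levels do not measure phosphorylation, which is how STAT proteins are switched on.

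Promoter sequence is shown first because genes of this family are themselves known targets of STAT proteins. The RefSeq promoter windows of GRCm38.p6, from 250 bases before a gene's start to 50 bases after it, were searched for the STAT motif TTCNNNGAA, which reads the same on both strands, and on both strands for the interferon response motif GAAANNGAAA. Members had 12 such windows, since some genes have more than 1 start. The STAT motif was found in the windows of Socs3 and Cish, 2 of 12, and in 8.3% of all 32851 promoters. The interferon response motif was found in 3 of 12, those of Stat2, Socs1 and the second start of Stat4, and in 3.44% of all promoters. In the 30 bases printed for each, 5′ to 3′ on the gene's strand, capitals mark the motif.
Socs3, chr11:117969501-117969530, minus strand: gaaaccagccTTCTTAGAAgggaggggggg
Cish, chr9:107296654-107296683, plus strand: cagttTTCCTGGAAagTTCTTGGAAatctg
Socs1, chr16:10785597-10785626, minus strand: cttgccgGAAAGAGAAACCGAAAgcggggg
Stat2, chr10:128270266-128270295, plus strand: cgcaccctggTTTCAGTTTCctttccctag
Stat4, chr1:52008133-52008162, plus strand: aatgtcttcaGAAAGTGAAAtttagaacgg
The Cish window holds the STAT motif in 2 copies, at the start and 11 bases after it, and the Socs3 copy begins 154 bases before the start. In Socs1 a pair of overlapping interferon response motifs begin 83 and 77 bases before the start. The Stat2 copy, which lies on the opposite strand, begins 222 bases before the start, and the Stat4 copy begins 97 bases before it. A motif match describes letters in the window and was not tested as a binding site.

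The libraries held 8005151 to 15495249 reads counted in genes. Gata1 had 0 reads in each of the 4 KO libraries, against 0 and 1 in WT LPS and 1 and 10 in WT ST, too few reads in WT to check the labels. Replicates differed more with LPS than at steady state. The median SD of log2 CPM (counts scaled to library size, with TMM factors) within a group was 0.331 in KO LPS and 0.436 in WT LPS, against 0.108 in KO ST and 0.188 in WT ST. Along the first principal component, with 63.8% of the variance, the LPS libraries were spread out and mixed by genotype, at -49.7 and -96.6 for KO LPS 1 and 2 and -89.5 and -21.1 for WT LPS 1 and 2, while all 4 steady-state libraries lay between 60.5 and 67.3. Calls that changed without 1 of them are therefore given with their values. Markers of T, B and natural killer cells summed to at most 30.8 CPM in any library, and Cd3e, a defining T cell gene, to at most 0.177 CPM. Neutrophil markers summed to between 5.31 and 249 CPM, those of mast cells and basophils to between 5.76 and 134 CPM and those of eosinophils to at most 10.6 CPM, each highest in WT ST 2. Of the 10 dendritic cell markers, 8 had at least 4.90 CPM in every library. Cd209a was at 0 in 3 of the 4 LPS libraries, and Flt3 had 0.452 and 0.306 CPM in KO LPS and 0.926 and 18.7 CPM in WT LPS, against 33.4 and 35.1 CPM in KO ST and 19.9 and 55.9 CPM in WT ST. In bulk RNA, fewer cells of a type cannot be told apart from less RNA per cell.

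**Figure D1:**
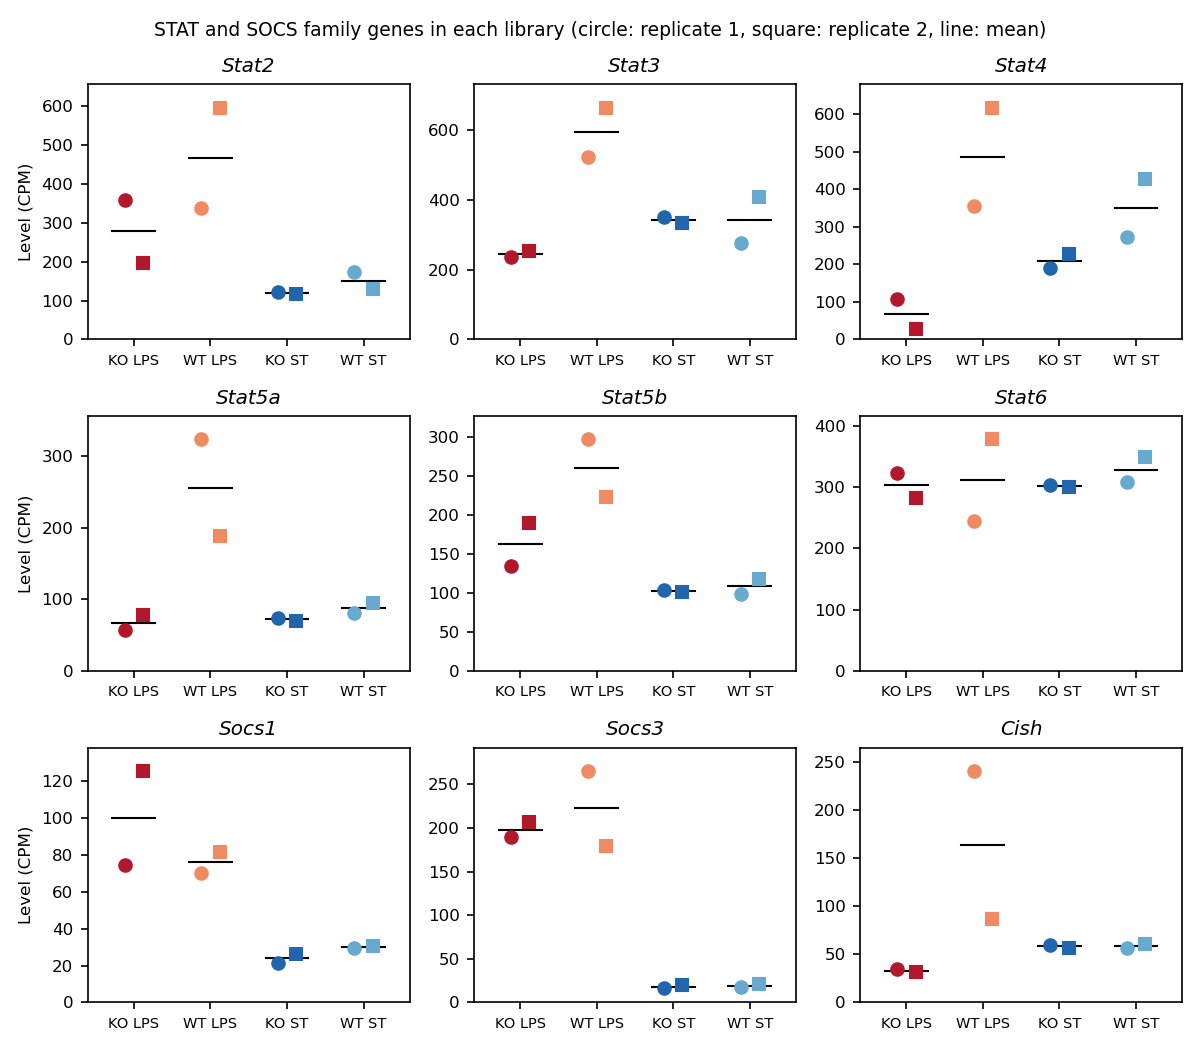
Level of each of the 9 genes in CPM (counts scaled to library size, linear axes from 0) in KO LPS, WT LPS, KO ST and WT ST, with a circle for replicate 1, a square for replicate 2 and a line at the mean of the 2. Socs1 and Socs3 are higher in all LPS libraries than in any steady-state library, while Cish, Stat3, Stat4, Stat5a and Stat5b are lower in both KO LPS libraries than in both WT LPS libraries.

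Among the SOCS inhibitors, Socs1 and Socs3 rose with LPS in both genotypes. Socs3, which blocks signalling from receptors with the gp130 chain, had 189.9 and 207 CPM in KO LPS and 266 and 179 CPM in WT LPS, against 15.98 and 19.7 CPM in KO ST and 17.96 and 20.7 CPM in WT ST. Every LPS library was far above every steady-state library. The increase was 11.1-fold in KO cells (log2 fold change 3.47 ± 0.30, SE, adjusted p = 0.00297) and 11.5-fold in WT cells (3.53 ± 0.30, adjusted p = 0.00372) by edgeR's quasi-likelihood test, adjusted over all genes tested. By p-value Socs3 ranked 18 in KO cells and 11 in WT cells among the 12442 genes. Both calls held in each of the 16 alternative settings, with log2 fold changes of 3.33 to 3.66 in KO cells and 3.22 to 3.78 in WT cells.

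Socs1, which binds Janus kinases directly and restrains interferon signalling, had 74.9 and 126 CPM in KO LPS and 70.5 and 81.5 CPM in WT LPS, against 21.5 and 26.3 CPM in KO ST and 29.7 and 30.6 CPM in WT ST. The LPS and steady-state libraries did not overlap in either genotype. It rose 4.20-fold in KO cells (log2 2.07 ± 0.30, adjusted p = 0.0102) and 2.52-fold in WT cells (1.33 ± 0.29, adjusted p = 0.0431) in edgeR's test. The KO call was lost without KO ST 1 (adjusted p = 0.0963) or KO ST 2 (0.0769). The WT call, close to the threshold, was lost without WT LPS 1 (0.0527), either KO ST library (0.0944 and 0.0958) or either WT ST library (0.246 and 0.217).

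Cish, an inhibitor induced by STAT5 at receptors for GM-CSF and interleukin 2, had a pattern of its own among these 3 inhibitors. It had 34.3 and 31.4 CPM in KO LPS and 241 and 86.4 CPM in WT LPS, against 59.9 and 56.8 CPM in KO ST and 56.8 and 61.2 CPM in WT ST. Both KO LPS libraries lay below every other library and both WT LPS libraries above every other. The log2 fold change of LPS against steady state was -0.83 ± 0.43 in KO cells (adjusted p = 0.221) and 1.47 ± 0.44 in WT cells (adjusted p = 0.088), neither past the threshold in edgeR's test. WT LPS 1 and 2 differed 2.79-fold in Cish, the widest gap among the 9 genes in that group. The WT response was called without WT LPS 2 (2.03, adjusted p = 0.00421), and the KO response was called without WT LPS 1 (adjusted p = 0.0217) or WT LPS 2 (0.0222), libraries that enter it only through the shared spread. DESeq2 (adjusted p = 0.0196) and edgeR without a filter on low counts (0.0279) called the WT response of Cish, and a fit of the KO libraries alone called the KO response (-0.81, adjusted p = 0.0446).

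Among the STAT genes, Stat5a and Stat5b rose with LPS in WT cells and did not pass the test in KO cells. Stat5a had 56.7 and 77.8 CPM in KO LPS and 324 and 188 CPM in WT LPS, against 74.2 and 70.5 CPM in KO ST and 80.6 and 94.4 CPM in WT ST. The WT LPS libraries stood above all others, and the KO LPS libraries lay on either side of the KO ST ones. The log2 fold change with LPS was -0.11 ± 0.32 in KO cells (adjusted p = 0.835) and 1.55 ± 0.32, or 2.92-fold, in WT cells (adjusted p = 0.0357, edgeR). Stat5b had 134 and 190.2 CPM in KO LPS and 297 and 223 CPM in WT LPS, against 104 and 102 CPM in KO ST and 98.6 and 118 CPM in WT ST. All LPS libraries were above all steady-state ones. Its log2 fold change was 0.66 ± 0.28 in KO cells (adjusted p = 0.148) and 1.26 ± 0.28, or 2.40-fold, in WT cells (adjusted p = 0.0437, edgeR). The WT calls of Stat5a and Stat5b were lost without WT LPS 1 (adjusted p = 0.0636 and 0.0921), KO ST 1 (0.085 and 0.108), KO ST 2 (0.0836 and 0.107), WT ST 1 (0.238 and 0.264) or WT ST 2 (0.169 and 0.177).

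Stat2, the partner of Irf9, had 359.9 and 197 CPM in KO LPS and 338 and 597 CPM in WT LPS, against 121 and 116 CPM in KO ST and 174 and 129 CPM in WT ST. Every LPS library was above every steady-state library, but neither response was called in edgeR's test, with log2 fold changes of 1.23 ± 0.40 in KO cells (adjusted p = 0.0867) and 1.63 ± 0.41 in WT cells (adjusted p = 0.0588). The KO response was called without WT LPS 1 (adjusted p = 0.0358) or WT LPS 2 (0.0348), and the WT response without WT LPS 1 (1.99, adjusted p = 0.0333). DESeq2 called Stat2 in KO cells (adjusted p = 0.0207) and in WT cells (0.00185), and edgeR without a filter on low counts called it in WT cells (0.0182). Stat6, the interleukin 4 factor, differed least of the 9 genes between its highest and its lowest library. It had 324 and 283 CPM in KO LPS and 245 and 378 CPM in WT LPS, against 303 and 301 CPM in KO ST and 307 and 349 CPM in WT ST. Its log2 fold change with LPS was 0.01 ± 0.29 in KO cells (adjusted p = 0.989) and -0.08 ± 0.29 in WT cells (adjusted p = 0.887, edgeR).

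Stat3, the factor of interleukins 6 and 10, had 237 and 252 CPM in KO LPS and 524 and 665 CPM in WT LPS, against 350.3 and 333 CPM in KO ST and 277 and 410.2 CPM in WT ST. The KO LPS libraries were the lowest of the 8 and the WT LPS libraries the highest. The log2 fold change with LPS was -0.48 ± 0.29 in KO cells (adjusted p = 0.283) and 0.79 ± 0.29 in WT cells (adjusted p = 0.144), not called in either by edgeR's test. Stat4, the interleukin 12 factor, had 107 and 27.7 CPM in KO LPS and 355 and 617 CPM in WT LPS, against 189 and 226 CPM in KO ST and 273 and 428 CPM in WT ST. The KO LPS libraries were again the lowest of the 8, but they differed from each other 3.85-fold, more than any other pair of replicates for these genes, and the WT LPS and WT ST libraries overlapped. The log2 fold change of Stat4 with LPS was -1.63 ± 0.62 in KO cells (adjusted p = 0.119) and 0.47 ± 0.60 in WT cells (adjusted p = 0.639, edgeR). Without KO LPS 1 the KO value was -2.91 and was called (adjusted p = 0.0369), and DESeq2 called it over all libraries (0.0353).

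Counted over the family, LPS raised 2 of 9 genes in KO cells (Socs1 and Socs3) and 4 of 9 in WT cells (Socs1, Socs3, Stat5a and Stat5b), and lowered 0 of 9 in either. Over all genes tested 11.8% were called in KO cells, 5.3% as higher and 6.46% as lower, and 6.49% in WT cells, 3% as higher and 3.49% as lower. The libraries of LPS and steady state did not overlap for 7 of 9 genes in KO cells, of which 4 were higher and 3 lower, and for 7 of 9 in WT cells, all higher. The share of all genes without overlap was 72.6% in KO cells, 34.4% as higher and 38.2% as lower, and 56.6% in WT cells, 27.5% as higher and 29.1% as lower. The median log2 fold change of the 9 genes was 0.0073 in KO cells and 1.33 in WT cells, against -0.023 and 0.0019 for all genes. With only the WT libraries in the fit, the WT calls of Stat5a, Stat5b and Socs1 were lost (adjusted p of 0.0904 to 0.141).

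**Figure D2:**
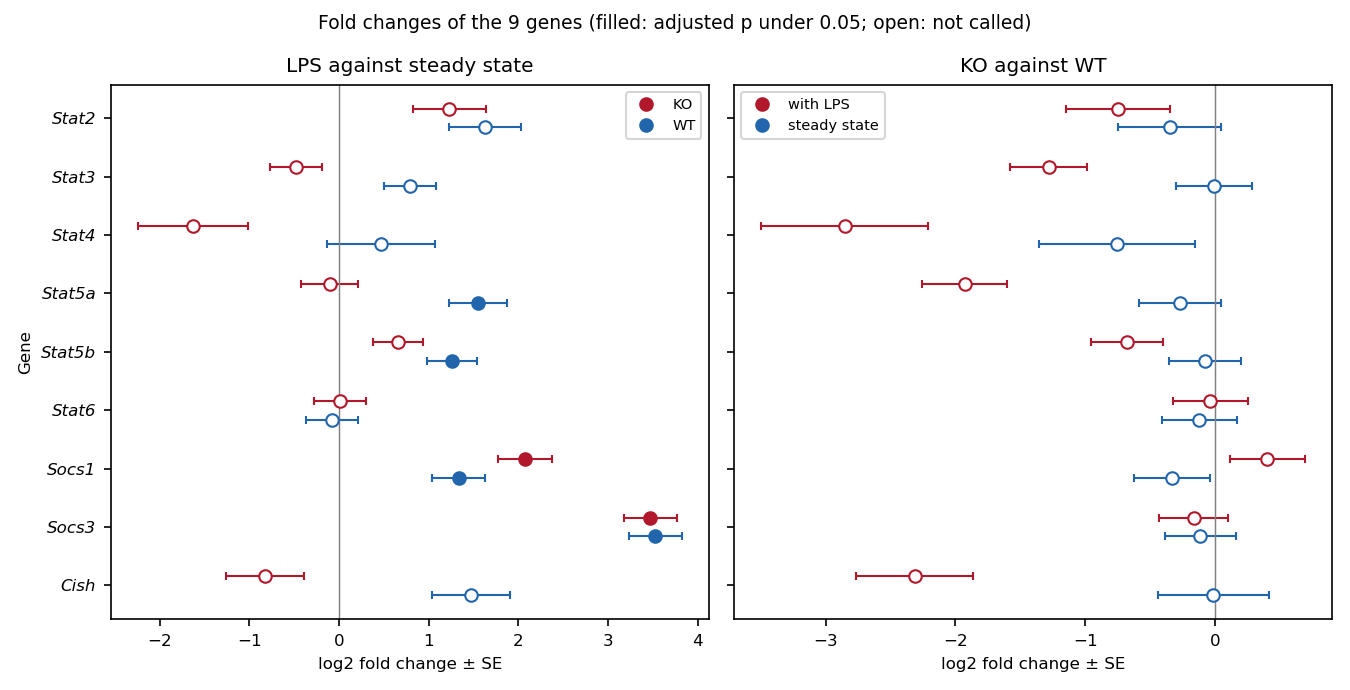
Log2 fold changes with their SE for the 9 genes, LPS against steady state in KO and WT cells at left and KO against WT with LPS and at steady state at right, with filled points for an adjusted p under 0.05. Socs3 lies near 3.5 in both genotypes, Stat3, Stat4, Stat5a and Cish lie below 0 in KO cells and above 0 in WT cells, and no KO against WT point is filled.

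With LPS, none of the 9 genes was called between KO and WT cells, and 5 of 9 (4 STAT genes and Cish) had lower levels in both KO libraries than in both WT libraries. Over all genes 0.772% were called, and 36.1% did not overlap, 18.1% as lower in KO LPS. At an unadjusted p under 0.05 the counts were 2108 of all genes and 5 of the 9 (Stat3, Stat4, Stat5a, Stat5b and Cish). The median log2 fold change of the 9 genes was -0.75, against -0.014 for all genes. Stat5a averaged 67.2 ± 14.9 CPM in KO LPS and 256 ± 96.2 CPM in WT LPS (SD, n = 2 each), 3.81-fold lower in KO LPS, with a log2 fold change of -1.93 ± 0.33 and an adjusted p of 0.0522. Cish averaged 32.9 ± 2.09 CPM in KO LPS and 164 ± 109 CPM in WT LPS, with a log2 fold change of -2.31 ± 0.45 (adjusted p = 0.0705). Stat4 averaged 67.2 ± 55.8 CPM in KO LPS and 486 ± 185 CPM in WT LPS, with a log2 fold change of -2.85 ± 0.64 (adjusted p = 0.0899). Stat3 averaged 245 ± 10.9 CPM in KO LPS and 594 ± 100.1 CPM in WT LPS, with a log2 fold change of -1.28 ± 0.30 (adjusted p = 0.0942, edgeR for all). These 4 had the smallest adjusted p-values of the 9 genes, and Stat5b was at -0.68 ± 0.28 (adjusted p = 0.273).

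The remaining members differed less between KO LPS and WT LPS and overlapped: Stat2 at -0.75 ± 0.40 (adjusted p = 0.402), Stat6 at -0.04 ± 0.29 (0.967), Socs3 at -0.17 ± 0.27 (0.818) and Socs1 at 0.40 ± 0.29 (0.551, edgeR). Socs1 was the only one of the 9 with a positive value, and without KO LPS 2 it was -0.04. Whether the 4 genes nearest the threshold were called depended on the libraries, the tool, the filter and the groups in the fit. Without WT LPS 1, Stat3 was at -1.45 (adjusted p = 0.0417), Stat4 at -3.20 (0.0393), Stat5a at -1.49 (0.0279) and Cish at -1.40 (0.0208), all called. Without WT LPS 2, Stat5a was at -2.27 (0.0268) and Cish at -2.87 (0.00957), both called, while Stat3 was at -1.09 (0.114) and Stat4 at -2.39 (0.109), not called. Without KO LPS 1 or KO LPS 2 none of the 4 was called, and Stat4 ranged from -4.14 without KO LPS 1 to -2.21 without KO LPS 2. DESeq2 on the same counts called these 4 genes as lower, with adjusted p-values of 0.0011 for Stat3, 0.000145 for Stat4, 2.35e-05 for Stat5a and 0.000131 for Cish, and edgeR without a filter on low counts called Stat4 (0.0103), Stat5a (0.00764) and Cish (0.00659). With only the KO LPS and WT LPS libraries in edgeR's fit, none of the 4 was called (adjusted p of 0.357 to 0.43). A replicate block in edgeR's fit called none of them either (0.122 to 0.175).

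Cell type markers differed between the same libraries. The 10 dendritic cell markers summed to 4993 and 9972 CPM in KO LPS, against 17660 and 11890 CPM in WT LPS, and the 7 macrophage markers of 8 in the table summed to 3751 and 4215 CPM in KO LPS, against 2376 and 1521 CPM in WT LPS. At steady state the same sums were 21870 and 20870 CPM in KO ST and 29560 and 17240 CPM in WT ST for dendritic cell markers, and 3756 and 3893 CPM in KO ST and 3321 and 2530 CPM in WT ST for macrophage markers. Among single markers, Itgax, which encodes CD11c, had 80.3 and 78.8 CPM in KO LPS and 645 and 214 CPM in WT LPS. Their part in the lower levels of Stat3, Stat4, Stat5a, Stat5b and Cish was not tested.

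At steady state no member passed the test between KO and WT cells. Likewise 0% of all genes were called in edgeR's test, where 327 had an unadjusted p under 0.05, none of them a member. DESeq2 called 27 genes, none of them a member. All 9 log2 fold changes were negative, from -0.76 ± 0.60 for Stat4 to -0.01 ± 0.29 for Stat3, with a median of -0.12 against -0.0051 for all genes, and every adjusted p was 1. These SE and p-values carry the spread of all 8 libraries, including the LPS replicates, which differed more. With only the steady-state libraries in edgeR's fit 1 gene was called, not a member, and the lowest adjusted p of the 9 was 0.374, for Stat4. Stat4 averaged 208 ± 26.2 CPM in KO ST and 351 ± 109.6 CPM in WT ST (SD, n = 2 each). Stat4, Stat2, Stat5a, Stat6 and Socs1 had lower levels in both KO ST libraries than in both WT ST libraries, 5 of 9, while 45.5% of all genes did not overlap, 23.4% as lower in KO ST. Cish averaged 58.4 ± 2.14 CPM in KO ST and 59.0 ± 3.11 CPM in WT ST.

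The difference between the LPS responses was tested directly as the KO response minus the WT response. No gene of the 12442 was called, 0% of the total, and the counts at an unadjusted p under 0.05 were 797 genes by edgeR's quasi-likelihood test, 4 of them members (Cish, Stat5a, Stat3 and Stat4). DESeq2 called 113 genes, none of them a member. Cish had the largest difference of the 9, -2.30 ± 0.61 on the log2 scale (adjusted p = 0.579). Stat4 was at -2.10 ± 0.86 (adjusted p = 0.762), Stat5a at -1.65 ± 0.45 (adjusted p = 0.579) and Stat3 at -1.27 ± 0.42 (adjusted p = 0.647). Socs1 was at 0.74 ± 0.41 (adjusted p = 0.887) and Socs3, the gene with the strongest LPS response, at -0.05 ± 0.38 (adjusted p = 1). The calls of Stat5a and Stat5b in WT cells and not in KO cells are therefore not shown to be a difference between genotypes.

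**Figure D3:**
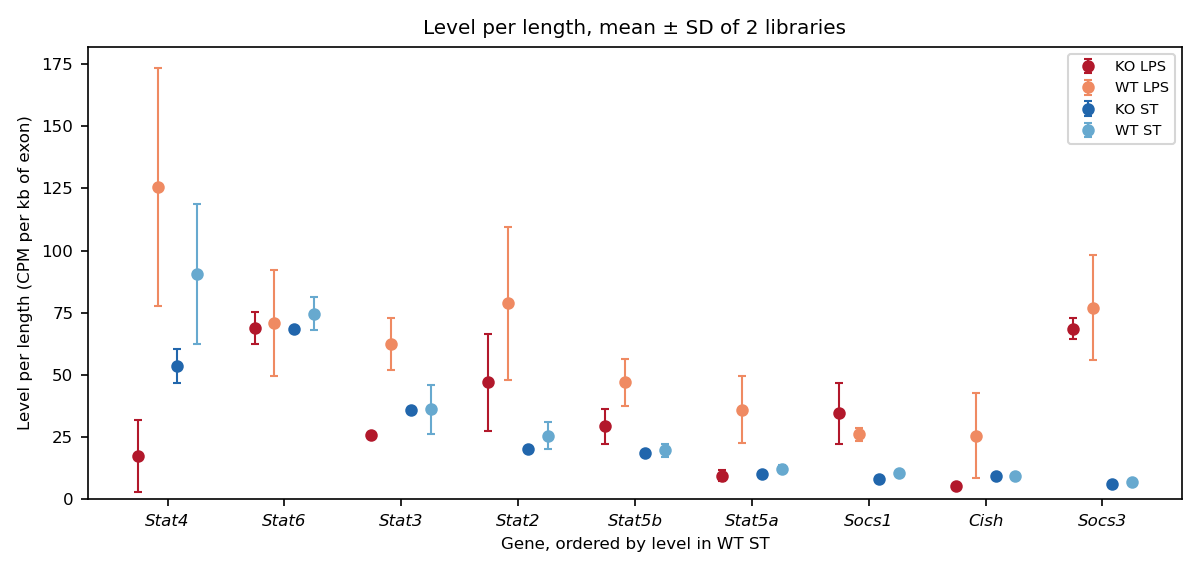
Level of each gene divided by the length of its merged exons (CPM per kb of exon, linear axis from 0), mean and SD of 2 libraries, in KO LPS, WT LPS, KO ST and WT ST, with genes ordered by their WT ST level. On this scale Stat4 and Stat6 are highest and Socs3 lowest at steady state, while Socs3 is among the highest with LPS. Merged exons take in every transcript, so the order of genes is approximate.

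Levels were set beside each other between genes after division by exon length, as CPM per kb of merged GENCODE exons. Merging takes in the exons of every transcript, so the length can exceed that of the RNA present and lower the value. It was 6419 bases in Cish and 9527 in Stat3, against 2891 in Socs3. The order of genes is therefore approximate. With LPS, the KO order began with Stat6 at 68.9 ± 6.59 CPM per kb and Socs3 at 68.6 ± 4.11, which did not differ beyond their spread, followed by Stat2 at 47.0 ± 19.5, and it ended with Stat4 at 17.4 ± 14.4, Stat5a at 9.43 and Cish at 5.12. The spread of Stat4 took in its neighbours Stat3, at 25.7, and Stat5a. The WT order with LPS began with Stat4 at 125.5 ± 47.9, followed by Stat2 at 78.8 ± 30.8, Socs3 at 77.0 ± 21.1, Stat6 at 70.8 ± 21.4 and Stat3 at 62.4 ± 10.5, neighbours that lay within each other's spread, and it ended with Socs1 at 26.1 and Cish at 25.5. At steady state Stat6 was first and Stat4 second in KO cells, at 68.5 and 53.7 CPM per kb, and Stat4 first and Stat6 second in WT cells, at 90.6 ± 28.3 and 74.6 ± 6.67, within their spread. Socs3 was last of the 9 in both, at 6.18 ± 0.922 in KO ST and 6.68 in WT ST. By mean, Stat4 ranked 7 of 9 in KO LPS and 1 of 9 in WT LPS, places that its spread does not fix. Socs3, last at steady state, ranked 2 in KO LPS and 3 in WT LPS.

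**Figure D4:**
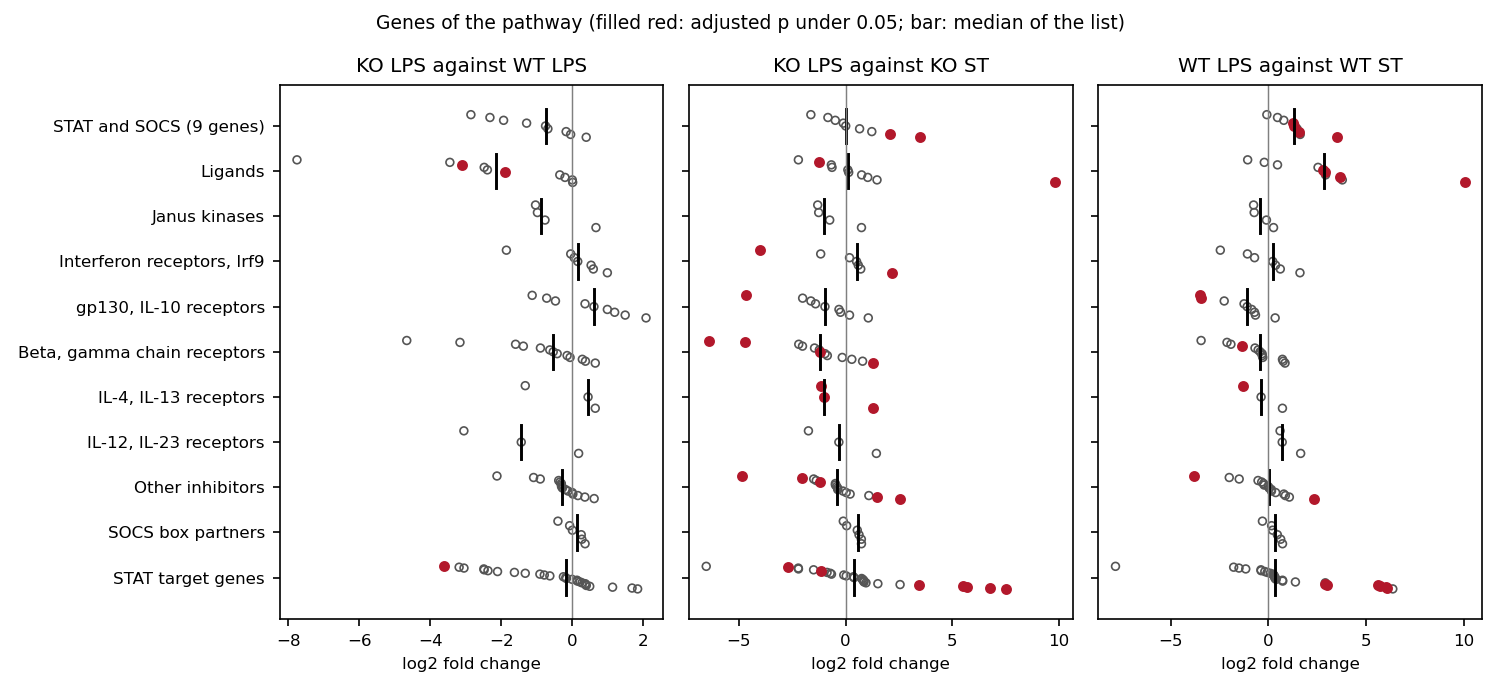
Log2 fold changes of the 9 genes and of 10 lists of pathway genes (1 point per gene tested, filled red where the adjusted p was under 0.05, bar at the list's median) for KO LPS against WT LPS, KO LPS against KO ST and WT LPS against WT ST. The 10 ligands tested have a median of -2.14 in KO LPS against WT LPS and of 2.85 in WT LPS against WT ST. The medians of all genes there are -0.014 and 0.0019. Il12a, Cxcl9 and Il13, at more than 7 from 0, had few or no reads in 1 of the groups, so their fitted folds are not measured sizes. They passed the read filter only through libraries where they were high, which fixed those directions in advance.

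Of 22 ligands of these STAT proteins, 10 had enough reads to be tested. Among these 10, LPS raised 1 and lowered 1 in KO cells, and it raised 4 and lowered 0 in WT cells. Of all genes tested, 5.3% were called higher and 6.46% lower in KO cells, and 3% and 3.49% in WT cells. Il6, whose product acts through Stat3, had 28.8 and 29.4 CPM in KO LPS and 253 and 249.7 CPM in WT LPS, against 9.85 and 11.1 CPM in KO ST and 11.5 and 27.4 CPM in WT ST. It was higher in both WT LPS libraries than in any other library, rose in WT cells (log2 3.69 ± 0.41, adjusted p = 0.00561) and was lower in KO LPS than in WT LPS (-3.11 ± 0.40, adjusted p = 0.0344, edgeR). In KO cells its response was 1.48 ± 0.39, just past the threshold (adjusted p = 0.051, edgeR). The difference between its responses was -2.21 ± 0.54 and was not called (adjusted p = 0.54, edgeR). Il12b and Osm, which encode an interleukin 12 chain and a gp130 cytokine, rose in WT cells by 2.79 ± 0.49 and 2.92 ± 0.56 on the log2 scale. In KO cells they were at 0.11 ± 0.46 and 0.75 ± 0.53, not called, and the difference between responses was not called for either. Il12a, the other chain of interleukin 12, was almost silent at steady state, with at most 0.0886 CPM, and had 41.8 and 55.3 CPM in KO LPS and 74.1 and 37.5 CPM in WT LPS, a rise called in both genotypes. Il12a passed the read filter only through the LPS libraries, so its test could only give a rise. Il15, a ligand of the Stat5 receptors, fell in KO cells with LPS (-1.23 ± 0.25, adjusted p = 0.0255) and was lower in KO LPS, with 20.3 and 14.8 CPM, than in WT LPS, with 58.5 and 72.4 CPM (-1.89 ± 0.25, adjusted p = 0.0366, edgeR).

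Between KO LPS and WT LPS, 0 of 10 ligands were called higher and 2 lower (Il6 and Il15), beside 0.281% and 0.49% of all genes. The list's median was -2.14, against -0.014 for all genes. The 10 include Il13, which passed the read filter only through WT LPS and so could only be lower. In edgeR's test over all libraries the other call in that contrast among the pathway genes was 1 of 27 STAT target genes, Ccl17, a chemokine induced through Stat6, with 37.2 and 25.3 CPM in KO LPS and 570.5 and 192 CPM in WT LPS (-3.61 ± 0.54, adjusted p = 0.0412, edgeR). The Il6, Il15 and Ccl17 calls were each lost without KO LPS 1 (adjusted p of 0.0976 to 0.146), KO LPS 2 (0.152 to 0.185), KO ST 1 (0.127 to 0.128) or KO ST 2 (0.124 to 0.127), and those of Il15 and Ccl17 also without WT ST 1 (0.111 for both) or WT ST 2 (0.11 for both), with log2 fold changes of -3.91 to -1.71 throughout. DESeq2 kept these 3 calls and made others in that contrast. In KO LPS 5 ligands, 8 target genes and 2 other inhibitors were lower. There 2 interferon receptor genes and 3 gp130 or interleukin 10 receptor genes were higher. Of the Stat5 receptor genes 1 was higher and 2 were lower, and of the interleukin 4 and 13 receptor genes 1 was higher and 1 lower. Il10rb, Il2rg, Il4ra and Osm are each in more than 1 list, so these counts can hold the same gene again.

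The receptors changed in part. With LPS, 5.3% of all genes were called higher and 6.46% lower in KO cells, and 3% and 3.49% in WT cells. None of the 4 Janus kinase genes was called in any comparison by edgeR's test over all libraries, while DESeq2 called 1 as lower in KO LPS than in KO ST. The 2 most abundant, Jak1 and Jak2, averaged 668 ± 139 and 635 ± 132 CPM in KO LPS and 419 ± 90.5 and 1296 ± 717 CPM in WT LPS. Of 7 genes, those of interferon receptors and Irf9, 2 were called in KO cells with LPS and 0 in WT cells. In KO cells 1 rose (Ifnar2, a type I interferon receptor chain, 2.17 ± 0.40 on the log2 scale) and 1 fell (Ifnlr1, -4.00 ± 0.78). In WT cells Ifnar2 was at 1.62 ± 0.39 (adjusted p = 0.0547) and Ifnlr1 at -2.45 ± 0.69 (adjusted p = 0.078, edgeR), in the same directions. No receptor gene named here was called in the difference between responses by edgeR's test. Ifnlr1 had only 1.47 and 0.919 CPM in KO LPS, against 18.5 and 20.7 CPM in KO ST. Of 9 gp130 and interleukin 10 receptor genes, Lifr fell in KO cells (-4.69 ± 0.60), and Lifr (-3.47 ± 0.56) and Il27ra (-3.46 ± 0.60) fell in WT cells. In KO cells Il27ra was at -2.01 ± 0.54, not called (adjusted p = 0.0529, edgeR). Il27ra had only 0.661 and 0.866 CPM in WT LPS, against 11.3 and 6.10 CPM in WT ST. Of 13 receptor genes that signal through Stat5, Il2rg, the common gamma chain, rose in KO cells (1.30 ± 0.24) and 3 fell. These were Csf2ra (-1.19 ± 0.26), Il5ra (0.113 and 0 CPM in KO LPS, against 2.40 and 1.59 CPM in KO ST) and Flt3 (0.452 and 0.306 CPM in KO LPS, against 33.4 and 35.1 CPM in KO ST). Il5ra passed the read filter only through steady-state libraries, so its test could only give a fall. Both KO LPS libraries of Flt3 were under that filter too, so the size of its fall is not measured. Csf2ra, the GM-CSF receptor alpha chain, fell in WT cells too (-1.35 ± 0.26). Il2rg and Flt3 were at 0.72 ± 0.23 and -1.91 ± 1.02 in WT cells (adjusted p = 0.107 and 0.271, edgeR). Of 3 interleukin 4 and 13 receptor genes, which again include Il2rg, Il13ra1 fell in KO cells (-1.03 ± 0.23) and WT cells (-1.28 ± 0.23). Il4ra, whose chain recruits Stat6, fell in KO cells (-1.16 ± 0.25) and was at -0.37 ± 0.25 in WT cells (adjusted p = 0.363, edgeR). None of the 3 interleukin 12 and 23 receptor genes was called by edgeR's test over all libraries, while DESeq2 called 1 as lower in KO LPS than in WT LPS, 1 as lower in KO LPS than in KO ST and 1 as higher in WT LPS than in WT ST. Il12rb2, the chain that recruits Stat4, had 14.01 and 6.28 CPM in KO LPS, against 71.3 and 98.0 CPM in WT LPS (-3.05 ± 0.52, adjusted p = 0.0522, edgeR).

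Of 16 other inhibitors of the pathway, 2 rose and 3 fell in KO cells with LPS and 1 rose and 1 fell in WT cells. The shares of all genes called higher and lower were 5.3% and 6.46% in KO cells and 3% and 3.49% in WT cells. Usp18, which restrains the type I interferon receptor, rose in KO cells (2.55 ± 0.29 on the log2 scale) and WT cells (2.33 ± 0.29), and Asb2, a SOCS box protein, fell in KO cells (-4.88 ± 0.46) and WT cells (-3.79 ± 0.43). In KO cells the phosphatase gene Ptpn1 rose (1.47 ± 0.32), and Pias3, which encodes an inhibitor of Stat3 (-1.18 ± 0.25), and the adaptor gene Sh2b3 (-2.03 ± 0.53) fell. In WT cells Ptpn1 was at 0.87 ± 0.32, Pias3 at -0.53 ± 0.24 and Sh2b3 at -2.00 ± 0.52. These had the same directions and were not called (adjusted p = 0.137, 0.213 and 0.0667, edgeR). No difference between the responses was called for them by edgeR's test. None of the 6 tested partners of the SOCS box in ubiquitin ligases was called in any comparison by edgeR's test over all libraries or by DESeq2, the most abundant being Cul2, which averaged 42.5 ± 3.74 CPM in KO LPS and 44.5 ± 0.962 CPM in WT LPS, and Tceb1.

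Of 27 known STAT target genes tested, 5 rose in KO cells with LPS (Irf7, Isg15, Ifit1, Cxcl9 and Cxcl10) and 2 fell (Ccl17 and Il4ra), and 6 rose in WT cells (Irf7, Isg15, Ifit1, Cxcl10, Osm and Il1rn) and 0 fell. Among all genes, 5.3% rose and 6.46% fell in KO cells, and 3% and 3.49% in WT cells, at the same threshold. Irf7, an interferon regulatory factor, had 1253 and 2262 CPM in KO LPS and 1440.0 and 1047 CPM in WT LPS, against 12.6 and 19.0 CPM in KO ST and 25.7 and 12.1 CPM in WT ST. It rose by 6.80 ± 0.61 on the log2 scale in KO cells (adjusted p = 0.00297) and 6.04 ± 0.59 in WT cells (adjusted p = 0.00454, edgeR). Isg15 and Ifit1 rose by 5.50 ± 0.54 and 5.70 ± 0.50 in KO cells and by 5.998 ± 0.55 and 5.62 ± 0.50 in WT cells. Cxcl10, a chemokine, had 6.10 and 6.89 CPM in KO LPS and 57.3 and 60.8 CPM in WT LPS, against 0.155 and 1.06 CPM in KO ST and 1.83 and 0.446 CPM in WT ST. Cxcl9 was at 0 in all 4 steady-state libraries and had 1.58 and 2.60 CPM in KO LPS. It passed the read filter only through LPS libraries, so its test could only give a rise.

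The LPS calls of these pathway genes differed in how far they rested on single libraries. Of 22 genes called in KO cells (adjusted p of 0.00246 to 0.0493 in edgeR's test), 6 (Lifr, Il12a, Asb2, Irf7, Isg15 and Ifit1) were called with each of the 8 libraries left out in turn. The other 16 lost their call without KO ST 1 (adjusted p of 0.0645 to 0.201), and all of these but Usp18 did so without KO ST 2 (0.0688 to 0.253) or KO LPS 2 (0.0959 to 0.212). Of the 16, 11 lost it without KO LPS 1 (0.0578 to 0.0992), and 11 without WT ST 1 (0.0518 to 0.0988) or WT ST 2 (0.0519 to 0.0978). Of 15 called in WT cells (0.00372 to 0.0481), 6 (Il6, Il12a, Asb2, Irf7, Isg15 and Ifit1) were called with each library left out. The other 9 lost their call without WT ST 1 (0.0594 to 0.25) and all of these but Il12b without WT ST 2 (0.0621 to 0.257), while Il27ra, Csf2ra, Il13ra1, Osm and Il1rn lost it without WT LPS 1 (0.0506 to 0.0906). Csf2ra, Il13ra1, Osm and Il1rn lost it also without KO ST 1 (with Il12b, 0.0502 to 0.0871) or KO ST 2 (0.0563 to 0.0857), and Il1rn without KO LPS 1 (0.0586) or KO LPS 2 (0.0569). DESeq2 called all 22 and all 15. Between KO ST and WT ST none of the pathway genes was called by edgeR's test or by DESeq2. In the difference between responses none was called by edgeR's test, and DESeq2 called 3 ligands and 1 STAT target gene, with lower responses in KO cells.

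Likeness in pattern across the 8 libraries is given as a description, because the libraries fall into groups and share them. The highest correlations of log2 CPM among the 36 pairs were between Socs1 and Socs3 (Pearson's r of 0.948 over 8 libraries) and between Stat5a and Cish (0.914). Cish correlated less with Stat5b (0.578) than with Stat3 (0.773) or Stat4 (0.657). The lowest was between Stat4 and Socs1, at -0.43. Among 8937 genes with an edgeR average log2 CPM of 3 or more (from the mean level over the libraries, so that a gene such as Il12a can pass through its LPS libraries alone), without Gm and Rik symbols, those most like Socs3 were Il12a (r of 0.999) and Irg1 (0.995), and those most like Socs1 were H2-M2 (0.995) and Slpi (0.989). Stat4 was most like Nfkb1 (0.986) and Abca7 (0.985), and Stat3 most like Foxp1 (0.98) and Inpp5e (0.976). Stat5a was most like Cldn25 (0.984) and Stk40 (0.984), Stat5b most like Repin1 (0.991) and Tnfaip1 (0.99), and Cish most like Fam21 (0.989) and Cep89 (0.968). Stat2 was most like Neil1 (0.987) and Nt5c3 (0.978), and Stat6 had the weakest best matches, Prkar2b (0.962) and Ccdc91 (0.957).

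The genes lie on 5 chromosomes, and their reads are not equally unambiguous. In GENCODE M21 on GRCm38, Stat5b (chr11:100780731-100850724), Stat5a (chr11:100859351-100885169) and Stat3 (chr11:100885098-100939540) are neighbours, and Socs3 (chr11:117966079-117970047) is on the same chromosome. Stat6 (chr10:127642986-127660957) and Stat2 (chr10:128270559-128292849) are both on chromosome 10. Stat4 (chr1:51987148-52107189), Cish (chr9:107296026-107302784) and Socs1 (chr16:10782240-10785536) lie alone. Of the 50-base stretches of their exons, 8.52% in Stat5a and 11% in Stat5b also occur in another gene, including each other. The share is 21.7% in Stat4, all with Gm28177, which overlaps 26.7% of its exon bases, and 9.35% in Cish. It is 0% in Stat6, Socs1 and Socs3. The sources used here do not say how the authors treated reads matching more than 1 gene, and the library kit does not mark strand, so part of the Stat5a, Stat5b, Stat4 and Cish counts could have been assigned to their partners or dropped.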

How the data were processed

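Per the labels' protocols, total RNA was extracted with an RNeasy plus kit and sequenced from TruSeq v2 libraries. The authors deposited whole-number read counts per gene for 8 libraries, which were not normalized. Tools named by the submitters' processing notes, with no settings, are featureCounts, Subread 1.4.3, TopHat2 2.0.8 and edgeR 3.6.8, and the build is mm10. No row was blank or a total.

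Groups and replicate numbers came from the sample titles. The counts were fitted with edgeR 4.0.16 (R 4.3.3): filterByExpr (minimum count 10, minimum total 15), TMM factors, and the two-sided quasi-likelihood F test with a coefficient for each group over all 8 libraries (4 residual and 3.40 prior degrees of freedom, biological coefficient of variation 0.340). Called means a Benjamini-Hochberg adjusted p under 0.05 over 12442 genes. SE is the log2 fold change over the square root of F. The procedure was tested on simulated data for WT LPS against WT ST only, with the spread of each gene set alike in all groups. The other comparisons, and a wider spread with LPS as seen here, were not simulated. Alternatives were DESeq2 1.42.0, robust dispersion, a fit of only the groups compared, a replicate block, upper-quartile or RLE factors, no filter, a strict filter (CPM of 1 or more in at least 2 libraries), and leaving out each library, whose group then has 1 library assumed to vary like the rest. Correlations used log2 CPM with a pseudocount of 0.5.

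The 9 genes, the pathway and marker lists and the alternatives were chosen with earlier results of these data known. Named pathway genes were those called, or the most abundant of a list with none called.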

Additional observations from a re-analysis of the deposited data

Results flagged for a closer look

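The LPS levels of Stat3 and Cish lay on opposite sides of steady state in every library of the 2 genotypes, below both KO ST libraries in KO LPS and above both WT ST libraries in WT LPS. For Stat3 the KO response minus the WT response was -1.27 on the log2 scale, and for Cish it was -2.30. The difference was tested by the interaction in edgeR's quasi-likelihood test and was not called, with an adjusted p of 0.647 for Stat3 and 0.579 for Cish.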

How the results depend on the processing

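The 9 genes gave 45 log2 fold changes in the 5 comparisons. Over 711 alternatives, 635 kept their direction and their side of the threshold, 23 lost a call, 27 gained one and 26 changed sign, none of the last a called value. The number of genes called was the value most dependent on the setting. In KO LPS against WT LPS it was 96, with 538 without a filter, 1062 by DESeq2, 0 with only these groups in the fit and 8 with a replicate block. Members called there numbered 0, with 3 without a filter and 4 by DESeq2. In KO ST against WT ST it was 0, with 9 without a filter, 27 by DESeq2 and 1 with only these groups. In KO LPS against KO ST it was 1463, with 2223 without a filter, 2846 by DESeq2, 2316 with only these groups and 776 with a replicate block, and 2 members were called, with 4 by DESeq2. In WT LPS against WT ST it was 807, with 1497 without a filter, 1995 by DESeq2, 229 with only these groups and 465 with a replicate block, and 4 members were called, with 6 without a filter and 6 by DESeq2, which add Stat2 and Cish, and 1 with only these groups and 1 with the block, Socs3. In the difference between responses it was 0, with 3 without a filter and 113 by DESeq2.

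Leaving out each library in turn gave 1 to 826 genes and 0 to 4 members in KO LPS against WT LPS, 0 to 1 genes in KO ST against WT ST, 143 to 3345 genes and 1 to 4 members in KO LPS against KO ST, and 70 to 3629 genes and 1 to 5 members in WT LPS against WT ST. The cause of these changes was not tested. The log2 fold changes near 0 changed sign. With a library left out, KO LPS against WT LPS ranged from -0.32 to 0.31 for Stat6, -0.042 to 0.73 for Socs1 and -0.42 to 0.14 for Socs3. KO ST against WT ST ranged from -0.27 to 0.29 for Stat3, -0.21 to 0.047 for Stat5b, -0.28 to 0.032 for Socs3 and -0.077 to 0.027 for Cish. LPS responses ranged from -0.37 to 0.10 for Stat5a and -0.10 to 0.079 for Stat6 in KO cells and from -0.43 to 0.21 for Stat6 in WT cells. Their difference ranged from -0.90 to 0.076 for Stat2, -0.20 to 0.43 for Stat6 and -0.30 to 0.25 for Socs3. Upper-quartile factors gave -0.031 for the LPS response of Stat6 in KO cells and 0.0041 for the difference in Socs3, and the replicate block gave 0.017 for Stat3 in KO ST against WT ST.

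The labels do not say that replicate numbers pair libraries. Deviations of same-numbered libraries from their group means correlated at 0.108 between KO LPS and KO ST, 0.263 between WT LPS and WT ST, 0.157 between KO ST and WT ST and -0.63 between KO LPS and WT LPS. A block with crossed numbers in that last comparison, chosen after seeing the data, called 273 genes, 2 of them members. With the block, 0 of the 3 pathway genes called between KO LPS and WT LPS were called (adjusted p of 0.0764 to 0.093), 12 of 22 between KO LPS and KO ST and 12 of 15 between WT LPS and WT ST. With 2 libraries a group, the calls of Stat3, Stat4, Stat5a and Cish between KO LPS and WT LPS depended on the tool, the filter and single libraries.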
